A study of Homo sapiens with 6 samples.

Results

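The replication-dependent histone genes were taken as every protein-coding gene of the deposited table whose name starts with HIST1H, HIST2H, HIST3H or HIST4H. There were 71 of them among 58735 genes: 6 for H1, 17 for H2A, 18 for H2B, 15 for H3 and 15 for H4. The RNA came from AZ-521, a human cell line that the labels call a gastric cancer cell from stomach with the genotype WT, and that cell banks list as a duodenal carcinoma line. Cells received 10 µM platycodon D (PD), a saponin from balloon flower root, or the solvent DMSO over 48 h, and each group had 3 samples. The question the study put was how the compound acts against gastric cancer cells. Messenger RNA was selected by its poly(A) tail with a stranded kit. The labels do not say that the samples were grown as separate cultures, and the spread behind the p-values is that of these samples alone and may be technical. All 6 samples came from 1 line, and in bulk RNA fewer cells that express a gene cannot be told apart from less RNA per cell.

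Replication-dependent histone genes supply the H2A, H2B, H3 and H4 of the nucleosome core and the linker histone H1 while DNA is copied in S phase. Most of their messages carry no poly(A) tail. They end just after a conserved stem-loop, which the stem-loop binding protein SLBP holds through processing, export and translation, and they are degraded when DNA synthesis stops. Some of these genes also give polyadenylated messages that read past the stem-loop to a later signal, mainly in cells that have left the cycle or are differentiating. A library selected on poly(A) tails therefore samples the polyadenylated forms by design.

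The histone stem-loop consensus, with its 4 variable positions left free, was searched on the sense strand of the GENCODE 29 transcripts. It was present in 42 of 19922 protein-coding genes (0.21%), and 32 of those 42 were histone genes of this set. The loops shown are the 6 different letter sequences found, each with 5 bases on either side, and the capitals mark the stem and loop. They are shown because the same element stands at the end of nearly every type, so that the annotated end of a gene model relative to it can be read below.
HIST2H2BE: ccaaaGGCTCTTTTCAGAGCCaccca
HIST1H2BC: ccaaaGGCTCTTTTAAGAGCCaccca
HIST1H4H: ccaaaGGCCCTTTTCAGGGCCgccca
HIST1H4I: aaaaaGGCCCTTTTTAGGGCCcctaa
HIST1H2AG: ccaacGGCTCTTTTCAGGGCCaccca
HIST1H3E: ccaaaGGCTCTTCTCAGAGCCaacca

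The capitals lie in GRCh38 at chr1:149886188-149886203 on the minus strand for HIST2H2BE, chr6:26123472-26123487 (minus) for HIST1H2BC and chr6:26285131-26285146 (minus) for HIST1H4H. They lie at chr6:27139654-27139669 (plus) for HIST1H4I, chr6:27133515-27133530 (plus) for HIST1H2AG and chr6:26225596-26225611 (plus) for HIST1H3E. The form of HIST2H2BE was the most frequent, in 17 genes: 6 for H2A, 8 for H2B and 3 for H3. The form of HIST1H2BC was found in 3 genes for H2B and 2 for H3. All 8 genes for H4 with the motif carried a stem with GGCCC, 5 in the form of HIST1H4H and 3 in that of HIST1H4I, and no H2B or H3 gene did. HIST1H2AG and HIST1H3E each had a form of their own.

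FPKM values, in which fragments are scaled to gene length and library size, were given for each gene. Reads assigned to genes, recovered from the deposited values, numbered between 14915538 and 16341687 per sample, and log2 profiles correlated at 0.969 to 0.985 within groups and 0.92 to 0.944 between them. Marker genes of gastric epithelium were near absent, against the label: 0 of 9 reached the level needed for a test, GKN1, GKN2, TFF1, TFF2 and LIPF were listed at 0 in every sample, and the list summed to 0.334 to 0.788 FPKM. Among 6 general epithelial markers KRT18 and KRT19 were listed at 0, EPCAM, CDH1 and KRT8 did not exceed 0.428 FPKM, and CLDN4, a claudin of tight junctions, rose from a mean of 1.06 to 2.68 FPKM (limma adjusted p = 0.006). The list summed to 1.46 to 1.70 FPKM in DMSO and 2.67 to 3.59 in PD, and CLDN4 made up the difference: KRT8 was lower in all PD samples, at means of 0.39 and 0.292 FPKM. The 6 intestinal markers summed to 1.23 to 1.78 FPKM. Most of that was CDX2, at 0.979 to 1.59 FPKM, the only 1 of the 6 that was tested (log2 fold change -0.06, limma adjusted p = 0.795). The 8 markers of leukocytes, endothelium and fibroblasts summed to 0.967 to 1.27 FPKM. The groups overlapped in both sums. Among their single genes LGALS4 was higher in all PD samples (means of 0.138 FPKM in DMSO and 0.355 in PD) and DCN lower (0.581 and 0.362). MUC5AC, of the gastric list, had 0 reads in each DMSO sample and 23, 22 and 17 in the PD samples. The part of CLDN4 in the results was not tested. 

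In these libraries selected on poly(A) tails, the summed level of the replication-dependent histone genes was higher in the PD samples than in the DMSO samples. The total level of these messages, with the forms that carry no tail, was not measured. Summed over all 71 genes, the level was 199, 199 and 216 FPKM in the DMSO samples and 381, 345 and 382 FPKM in the PD samples, a ratio of means of 1.80 (205 ± 9.58 against 370 ± 21.4, SD, n = 3 each). In reads, 3047, 3056 and 3414 against 4964, 4878 and 5304 fell on these genes. The groups did not overlap in either quantity, and the sums carry no test.

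Of the 71 genes, 27 reached at least 1 FPKM in at least 3 samples and were tested with limma on log2(FPKM + 1), 32 were above 0 but below that level, and 12 were at 0 in all samples. A gene is said to have risen or fallen at a Benjamini-Hochberg adjusted p under 0.05 over 13579 genes, and fold changes are on the log2(FPKM + 1) scale, which understates the change of low genes. By that measure 13 rose and 0 fell, where 14.3% of all tested genes rose and 12.7% fell. At 2-fold or more, 5 rose, against 2.84% of all genes, and 0 fell, against 0.979%. All PD samples lay above all DMSO samples for 16 of the 27 (22.5% of all genes), the reverse held for 0 (21.9% of all genes), and 11 overlapped. The log2 fold change was above 0 for 22 of 27, with a median of 0.54 and a range of -0.25 to 1.58, beside a median of 0.00 over all tested genes. The 16, the 22 and the median, though not the 13 that rose, include HIST1H2BL and HIST1H2BF, which reached 1 FPKM only in the PD samples and so had to be higher there to be tested. Of the 19 genes with at least 1 FPKM in all 6 samples, 13 rose, 0 fell, 14 had all PD samples above all DMSO samples and 17 were positive, with a median of 0.61.

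In a fit of the recovered reads with voom, 26 of the genes were tested, 18 rose, 0 fell and 11 rose at least 2-fold. Of all genes in that fit 15.9% rose, 15.3% fell and 6.34% rose at least 2-fold. The filter there was at least 10 reads in at least 3 samples. HIST1H2BF, HIST1H4K and HIST1H4E, counted in the 18 and the 11, reached 10 reads in all PD samples but not in most DMSO samples. These genes had to be higher in PD to be tested, so their part in the counts is a description. With every sample scaled to the same total, the median over all genes moved to -0.10. The share of passing genes that rose went from 52.9% to 33.1%. In that fit 12 of the histone genes rose and 0 fell, where 1398 of all 13696 genes rose and 2822 fell.

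**Figure D1:**
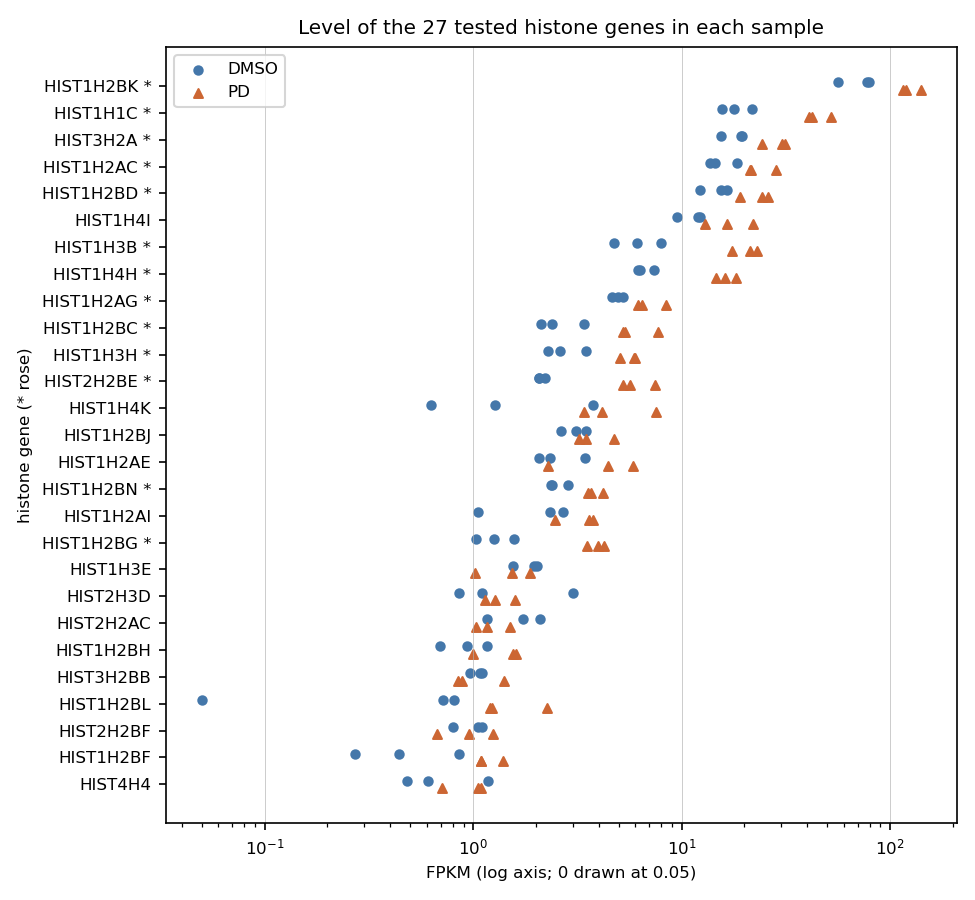
FPKM on a log axis of the 27 tested histone genes, 1 row per gene in order of mean level, with circles for the 3 DMSO samples and triangles for the 3 PD samples; a value of 0 is drawn at 0.05 and an asterisk marks a gene that rose. In HIST1H3B, HIST1H4H, HIST2H2BE and HIST1H2BG the triangles stand well to the right of the circles, while in HIST1H3E, HIST2H3D and HIST2H2AC they are mixed.

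Among the linker histones, HIST1H1C (ENSG00000187837, chr6:26055787-26056428) carried nearly all of the H1 signal. Its level was 21.8, 15.6 and 17.8 FPKM in DMSO and 42.5, 40.8 and 52.3 FPKM in PD. Every PD sample was above every DMSO sample. The gene, an H1 that compacts the DNA between nucleosomes, rose with a log2 fold change of 1.25 ± 0.15 (SE, limma adjusted p = 0.00149). The other 5 H1 genes did not reach the level for a test, and the summed H1 level went from 19.0 ± 3.25 to 46.0 ± 6.08 FPKM (SD, n = 3 each), a ratio of 2.42.

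For H2A, which pairs with H2B in the nucleosome core, 3 of 6 tested genes rose (14.3% of all genes) and 0 fell (12.7%). The median log2 fold change was 0.51. HIST3H2A was the highest, at 19.6, 15.5 and 19.3 FPKM in DMSO and 31.3, 24.2 and 30.5 FPKM in PD, and its groups did not overlap. It rose by 0.63 ± 0.13 on the log2 scale (SE, adjusted p = 0.0139). HIST1H2AC was at 18.4, 13.7 and 14.4 FPKM in DMSO and 21.6, 21.3 and 28.5 in PD, and HIST1H2AG at 4.63, 4.95 and 5.26 against 6.16, 6.45 and 8.42. Both had all PD samples above all DMSO samples, and both rose (0.59 ± 0.15, adjusted p = 0.0279, and 0.42 ± 0.12, adjusted p = 0.042). Both calls were lost when some samples were left out. HIST1H2AC missed the threshold without DMSO replicate 2 (adjusted p = 0.0871), DMSO replicate 3 (0.0852), PD replicate 2 (0.053) or PD replicate 3 (0.0538). HIST1H2AG missed it without DMSO replicate 1, 2 or 3 (0.0864, 0.104 and 0.0814) or PD replicate 2 or 3 (0.0825 and 0.0679).

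The other 3 tested H2A genes did not pass. HIST1H2AE was at 3.45, 2.07 and 2.34 FPKM in DMSO and 5.88, 2.30 and 4.46 in PD (log2 fold change 0.48, adjusted p = 0.232), with 1 PD sample among the DMSO values, and without PD replicate 2 its adjusted p was 0.0468. HIST1H2AI was at 0.53 on the log2 scale (adjusted p = 0.144). HIST2H2AC, at 1.17, 2.10 and 1.74 FPKM in DMSO and 1.5, 1.17 and 1.03 in PD, had the lowest value of all 27, -0.25 (adjusted p = 0.306). Its groups overlapped. The summed H2A level was 46.3 ± 5.5 FPKM in DMSO and 71.1 ± 8.67 in PD (SD, n = 3 each), a ratio of 1.54.

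H2B had the most tested genes and the highest level of any type. Of 12 tested H2B genes 6 rose (14.3% of all genes) and 0 fell (12.7%). The median log2 fold change was 0.57, with HIST1H2BL and HIST1H2BF included. HIST1H2BK (chr6:27146418-27146798) was the most abundant histone gene of the set, at 56.4, 77.9 and 79.7 FPKM in DMSO and 141, 115 and 119 FPKM in PD. The PD samples stood above the DMSO samples, and it rose by 0.81 ± 0.15 (SE, adjusted p = 0.00912). It held 34.9% of the summed level in DMSO and 33.8% in PD. Without it the sum over the other 70 genes was 133 ± 11.2 FPKM in DMSO and 245 ± 17.2 in PD, a ratio of 1.84.

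HIST2H2BE (ENSG00000184678, chr1:149884459-149886652) and HIST1H2BG (ENSG00000273802, chr6:26215159-26216692) were the H2B genes with the largest log2 changes. HIST2H2BE was at 2.08, 2.22 and 2.07 FPKM in DMSO and 5.25, 5.64 and 7.45 in PD. The DMSO values were close together and the PD values all more than double them, with a ratio of means of 2.88. It rose by 1.18 ± 0.13 (SE, adjusted p = 0.00121). HIST1H2BG was at 1.57, 1.26 and 1.03 FPKM in DMSO and 3.52, 4.24 and 3.96 in PD, also without overlap. It rose by 1.10 ± 0.12 (adjusted p = 0.00132), and its ratio of means was 3.03.

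HIST1H2BC was at 2.11, 2.39 and 3.40 FPKM in DMSO and 7.73, 5.23 and 5.36 in PD, and it rose by 0.97 ± 0.18 (adjusted p = 0.00858). HIST1H2BD, at 15.5, 12.3 and 16.5 against 24.4, 19.1 and 26 FPKM, rose by 0.61 ± 0.15 (adjusted p = 0.0226), and HIST1H2BN, at 2.86, 2.40 and 2.36 against 3.57, 4.20 and 3.68 FPKM, by 0.44 ± 0.11 (adjusted p = 0.0212). In all 3 the groups did not overlap. HIST1H2BD missed the threshold without DMSO replicate 2 (adjusted p = 0.0676), PD replicate 1 (0.0704) or PD replicate 3 (0.0547), and HIST1H2BN without DMSO replicate 2 (0.0773), DMSO replicate 3 (0.0789) or PD replicate 2 (0.0853).

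The 6 H2B genes that did not pass were low or mixed. HIST1H2BL, at 0, 0.721 and 0.813 FPKM in DMSO and 1.20, 2.27 and 1.23 in PD, gave 0.79 on the log2 scale (adjusted p = 0.0686), and HIST1H2BF, at 0.272, 0.441 and 0.853 against 1.09, 1.09 and 1.39, gave 0.54 (adjusted p = 0.0574). Both were tested only because of their PD levels, so their separate groups and p-values are a description. HIST1H2BJ (0.23, adjusted p = 0.272), HIST1H2BH (0.30, adjusted p = 0.205), HIST3H2BB (-0.01, adjusted p = 0.956) and HIST2H2BF (-0.03, adjusted p = 0.922) had overlapping groups. The summed H2B level was 103 ± 12.3 FPKM in DMSO and 180 ± 14.8 in PD (SD, n = 3 each), a ratio of 1.75.

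**Figure D2:**
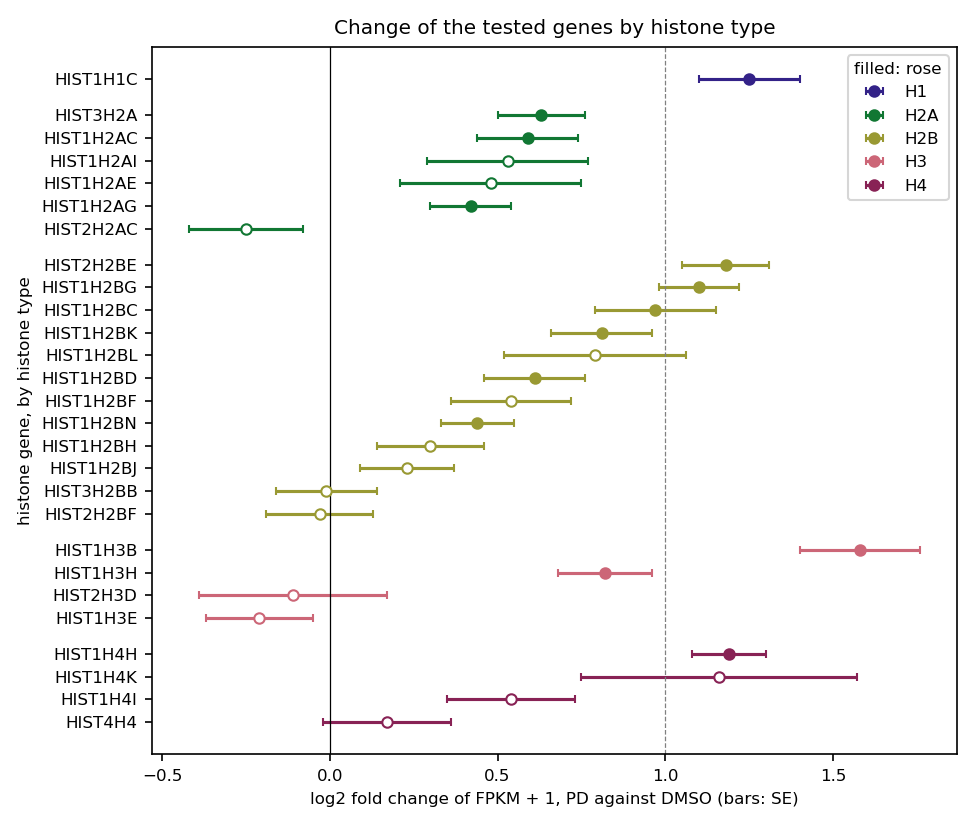
Log2 fold change of FPKM + 1, PD against DMSO, of the 27 tested histone genes grouped by histone type; points are limma estimates, bars are standard errors, filled points rose and the dashed line marks 2-fold. The values run from -0.25 for HIST2H2AC to 1.58 for HIST1H3B, and each of the types H1, H2B, H3 and H4 holds at least 1 gene to the right of the dashed line.

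For H3, 2 of 4 tested genes rose (14.3% of all genes) and 0 fell (12.7%). The other 2 had negative values that did not pass, and the median was 0.35. HIST1H3B (ENSG00000274267, chr6:26031650-26032060) had the largest change of all 27. Its level was 4.75, 6.13 and 7.99 FPKM in DMSO and 21.4, 23.0 and 17.5 FPKM in PD, so that the lowest PD sample was above the highest DMSO sample by a wide margin. It rose by 1.58 ± 0.18 (SE, adjusted p = 0.00125), with a ratio of means of 3.28 that rests on 131 reads in DMSO and 388 in PD. HIST1H3H was at 3.47, 2.28 and 2.61 FPKM in DMSO and 6.0, 5.05 and 5.93 in PD. Its groups did not overlap, and it rose by 0.82 ± 0.14 (adjusted p = 0.00557).

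HIST1H3E was at 2.02, 1.55 and 1.97 FPKM in DMSO and 1.02, 1.53 and 1.87 in PD (log2 fold change -0.21, adjusted p = 0.356). HIST2H3D was at 3.01, 0.856 and 1.10 FPKM in DMSO and 1.58, 1.27 and 1.14 in PD (-0.11, adjusted p = 0.808), and without DMSO replicate 1, its highest sample, the value was 0.23. Both genes had overlapping groups. The summed H3 level was 14.5 ± 0.733 FPKM in DMSO and 31.1 ± 1.56 in PD (SD, n = 3 each), a ratio of 2.14.

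For H4, which pairs with H3, 1 of 4 tested genes rose (14.3% of all genes), too few to set apart from that share. All 4 values were positive, with a median of 0.85. HIST1H4H (ENSG00000158406, chr6:26277609-26285638) was at 7.40, 6.29 and 6.15 FPKM in DMSO and 14.7, 18.3 and 16.1 FPKM in PD. Every PD sample was close to or above double every DMSO sample, and the gene rose by 1.19 ± 0.11 (SE, adjusted p = 0.000682), the smallest adjusted p among the histone genes. HIST1H4I, the most abundant H4 gene in DMSO, was at 12.3, 9.52 and 12 FPKM in DMSO and 12.9, 16.5 and 22 in PD. All its PD values were above its DMSO values, the nearest of them by little, and it did not pass (0.54 ± 0.19, adjusted p = 0.0732). Without PD replicate 1 its adjusted p was 0.0327.

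HIST1H4K was at 0.626, 3.76 and 1.27 FPKM in DMSO and 7.51, 4.17 and 3.42 in PD (1.16 ± 0.41, adjusted p = 0.0728), with the DMSO samples far apart and an adjusted p of 0.0156 without DMSO replicate 2. HIST4H4 stood at 0.17 on the log2 scale (adjusted p = 0.546). The summed H4 level was 21.8 ± 0.284 FPKM in DMSO and 41.1 ± 3.54 in PD (SD, n = 3 each), a ratio of 1.89. The ratios of the summed levels of the 5 types thus ran from 1.54 for H2A to 2.42 for H1, and differences between types were not tested.

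**Figure D3:**
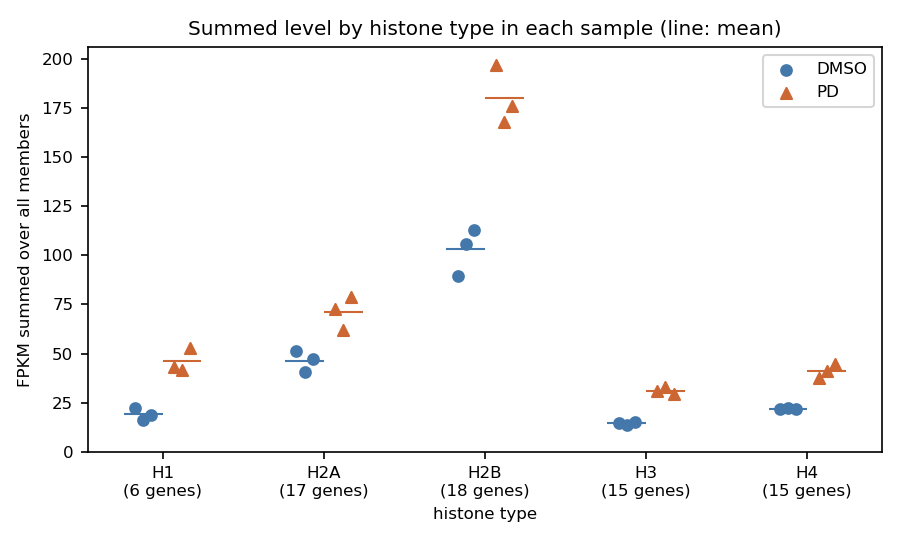
FPKM summed over all genes of a histone type, tested or not, in each sample, with circles for DMSO, triangles for PD and lines for the mean of 3 samples. In each of the 5 types every PD sum lies above every DMSO sum, and H2B has the highest sums in both groups.

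The genes sit in clusters on 3 chromosomes. The HIST1 cluster on chromosome 6 holds 55 of the 71 genes. Of 20 tested there 11 rose, where 14.3% of all tested genes rose, and the median log2 fold change was 0.60. Its summed level went from 177 ± 9.01 to 328 ± 16.7 FPKM (SD, n = 3 each), a ratio of 1.85. In HIST2 on chromosome 1, 1 of 4 tested genes rose (HIST2H2BE) and the median was -0.07. In HIST3, also on chromosome 1, 1 of 2 rose (HIST3H2A), and the only gene of HIST4, on chromosome 12, did not pass. So few genes were tested in HIST2, HIST3 and HIST4 that their counts cannot be set apart from the share of all genes. Differences between clusters were not tested.

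Within HIST1, gaps over 100 kb parted the genes into blocks. The block at chr6:26017085-26285638, with 32 genes, had 7 of 11 tested genes that rose, and its summed level went from 74.4 ± 7.26 to 152 ± 10.1 FPKM, a ratio of 2.04. It holds HIST1H3B, HIST1H1C, HIST1H4H and HIST1H2BG, the 4 genes of HIST1 that rose at least 2-fold. The block of 5 genes at chr6:27125897-27147515 includes HIST1H2BK, and 2 of 4 tested genes rose there, with a ratio of 1.70. In the block of 16 genes at chr6:27807444-27893843, 2 of 5 rose and the ratio was 1.83. Beside these counts, 14.3% of all tested genes rose, and differences between blocks were not tested. The remaining block of the cluster holds HIST1H2AA and HIST1H2BA, both at 0 in all samples.

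Because the libraries were selected on poly(A) tails, the annotated 3′ end of each gene model was set against its level. In 24 genes the model runs more than 100 bases past the stem-loop on the genome, in 8 it ends near the stem-loop, and in 39 it holds no such motif. Of those 39 models, 35 have a length that is a multiple of 3, with a median of 393 bases, as a model of the coding sequence alone would. The table's gene length equals the exon length of these models for all 71 genes, so reads past the end of a short model are outside the counted gene.

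Models that run past the stem-loop had the higher levels, with a median of 1.41 FPKM against 0.359 for models that end near it and 0.154 for models without the motif. Of 17 tested genes with a long model 10 rose, where 14.3% of all tested genes rose. Differences between the kinds of model were not tested. On the genome the model of HIST1H4H runs 7522 bases past its stem-loop, introns included, that of HIST2H2BE 1729 and that of HIST1H2BG 1059. None of the 3 tested genes that end near the stem-loop passed: HIST1H2AE, HIST1H2AI and HIST1H2BL, with log2 fold changes of 0.48, 0.53 and 0.79, the last tested only through its PD level. Of 7 tested genes without the motif 3 rose, and these were HIST1H2BK, HIST1H1C and HIST1H3B, the first of them the most abundant gene of the set and the last the one with the largest change. The summed levels went from 89.8 to 151 FPKM for long models, from 5.98 to 10.3 for models that end near the stem-loop and from 109 to 208 for models without the motif, which are ratios of 1.68, 1.72 and 1.91.

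**Figure D4:**
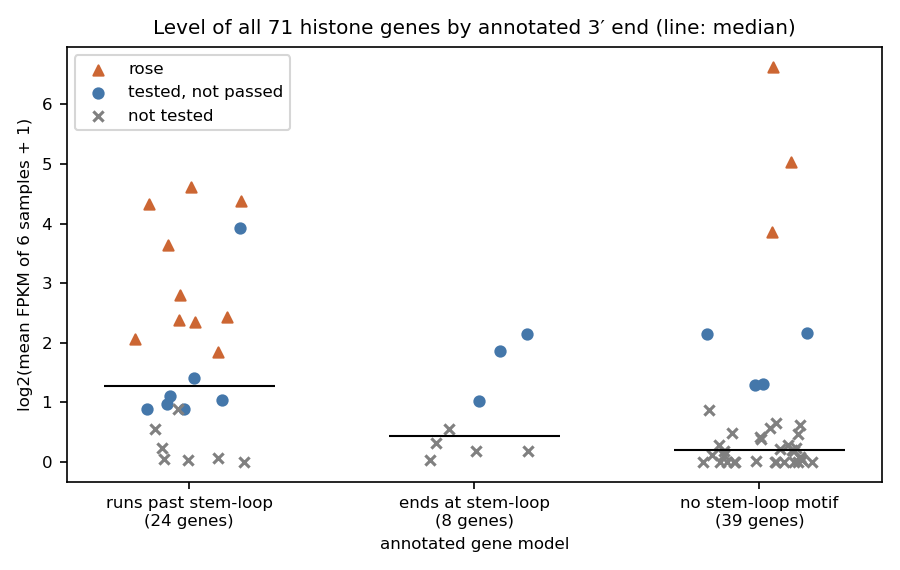
Mean FPKM of 6 samples, as log2(FPKM + 1), of all 71 histone genes by the annotated 3′ end of the gene model; triangles rose, circles were tested and did not pass, crosses were not tested, and the line is the median. Models that run past the stem-loop hold 10 of the 13 genes that rose, and the 3 others are models without the motif.

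Genes known to give polyadenylated forms were compared as a list of 10, all of which are histone genes of this set. All 10 were tested, 8 rose and 0 fell, where 14.3% of all tested genes rose and 12.7% fell. The median log2 fold change was 0.72. Their summed level went from 153 ± 8.36 to 279 ± 21.0 FPKM (SD, n = 3 each), a ratio of 1.82. Of the 61 genes not on the list 17 were tested, 5 rose and the median was 0.48, and the sum went from 51.2 ± 1.88 to 90.3 ± 2.34 FPKM, a ratio of 1.76. The ratios of the 2 groups of genes were thus near each other, while the levels were not.

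Many H2A and H2B genes stand head to head and share the stretch between their starts. There were 11 such pairs with starts 219 to 331 bases apart. HIST1H2AK is not among them, because it lies inside HIST1H2BN on the other strand. In the HIST1H2BC and HIST1H2AC pair, 219 bases apart, both genes rose. In 5 pairs 1 gene rose and its partner did not pass or was not tested. HIST2H2BE rose by 1.18 while HIST2H2AC, 323 bases away, was at -0.25 on 55 reads over the 6 samples. HIST2H2AC also shares part of its sequence with other genes, as given below. HIST3H2A rose by 0.63 while HIST3H2BB, 234 bases away, was at -0.01. HIST1H2BK rose beside HIST1H2AH, which had 3 reads over the DMSO samples and 16 over the PD samples and was not tested. In the other 5 pairs neither gene rose, but both genes were tested only for HIST1H2BL and HIST1H2AI. HIST1H2BF was tested and its partner HIST1H2AD had 0 reads. Neither gene was tested for HIST1H2BA and HIST1H2AA, HIST1H2BM and HIST1H2AJ, or HIST1H2BO and HIST1H2AM. Of all tested genes 14.3% rose, and no share was taken over pairs of other genes. The difference between partners was not tested.

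Promoters were taken from RefSeq (GRCh38.p14) as the 250 bases before to 50 after each start, and 66 of the 71 genes matched. Motifs were searched on both strands: CCAAT, the box bound by NF-Y, ATTTGCAT, the octamer bound by OCT1, and TATAAA, a core promoter element. None of the 3 letter sequences lies within another. CCAAT was present in 84.8% of the histone promoters and 34.6% of 34943 promoters of that length. ATTTGCAT was present in 33.3% against 1.8%, and TATAAA in 69.7% against 11.6%.

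The motifs were split by histone type. CCAAT was found in all promoters of H1 (6), H2A (16), H2B (18) and H3 (13), and in 3 of 13 for H4. The octamer was found in 11 of 16 H2A and 10 of 18 H2B promoters, in 1 of 13 for H3, and in 0 for H1 and H4. Of the 13 genes that rose 12 had CCAAT and 5 the octamer, and of the 14 that were tested and did not pass, also 12 and 5. The 250 bases before the start are shown for the H3 gene with the largest change, the H2B gene with the largest log2 change and the H4 gene with the smallest adjusted p, with these motifs in capitals.
HIST1H3B: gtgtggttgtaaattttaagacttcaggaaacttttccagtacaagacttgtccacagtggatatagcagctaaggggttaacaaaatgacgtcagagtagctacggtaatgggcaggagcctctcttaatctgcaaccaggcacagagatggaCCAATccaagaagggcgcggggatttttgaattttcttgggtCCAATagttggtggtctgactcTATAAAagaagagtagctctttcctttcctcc
HIST2H2BE: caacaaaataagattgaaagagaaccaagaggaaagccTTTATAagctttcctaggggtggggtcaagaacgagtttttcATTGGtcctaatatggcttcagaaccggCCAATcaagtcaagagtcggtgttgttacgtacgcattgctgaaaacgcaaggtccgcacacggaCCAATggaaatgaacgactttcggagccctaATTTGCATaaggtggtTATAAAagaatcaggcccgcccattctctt
HIST1H4H: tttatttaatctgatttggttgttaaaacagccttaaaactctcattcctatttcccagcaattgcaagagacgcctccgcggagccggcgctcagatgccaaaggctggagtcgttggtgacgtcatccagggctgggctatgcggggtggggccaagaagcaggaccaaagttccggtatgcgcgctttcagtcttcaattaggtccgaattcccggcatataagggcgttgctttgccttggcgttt

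These stretches lie on the minus strand of GRCh38.p14 at chr6:26032100-26032349 for HIST1H3B, chr1:149886683-149886932 for HIST2H2BE and chr6:26285535-26285784 for HIST1H4H. HIST1H3B has CCAAT and TATAAA in the sense direction, HIST2H2BE holds all 3 motifs, some of them in reverse, and HIST1H4H has none of these letter sequences in this window. The promoter of HIST2H2BE is also most of the stretch that it shares with HIST2H2AC.

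Of the 32 genes above 0 that were not tested, 18 had under 10 reads over the 6 samples, and their median was 8 reads. Together they had 248 reads in DMSO and 374 in PD, with all PD samples above all DMSO samples in 5 genes and below in 2. Both are lower shares than the 22.5% and 21.9% of all tested genes, so neither count is a result about these low genes. HIST1H2BE had the most, with 28, 21 and 12 reads in DMSO and 43, 64 and 37 in PD. HIST1H4E had 6, 11 and 3 reads against 15, 15 and 16. Both had separate groups. In the voom fit HIST1H2BE rose (1.41, adjusted p = 0.013) and HIST1H4E was at 1.44 (adjusted p = 0.0384). HIST1H4E reached 10 reads in all PD samples but not in DMSO replicates 1 and 3. It had to be higher in PD to be tested there, so its separate groups and p-value are a description. HIST1H3J had 23 reads in DMSO and 37 in PD, HIST2H2AA4 5 and 20, and HIST1H2BO 11 and 9. HIST2H4B had 3, 5 and 24 reads in DMSO and 1, 2 and 0 in PD, most of them from DMSO replicate 3.

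Sequence shared with other genes limits some of these values. HIST2H4B shares 97.1% of its 100-base words with other genes, and HIST2H2AA4 96.8%, because both have near-identical copies in the HIST2 cluster, so reads could be split between copies. Among tested genes HIST1H4K shares 100% of its words with HIST1H4J. HIST1H2AI shares 57.7% with other genes, HIST2H3D 51.3%, HIST1H2BK 28.4%, HIST2H2BF 17.6% and HIST2H2AC 17.2%. The levels of all these genes are uncertain to that extent. HIST1H3B, HIST1H1C and HIST1H4H share 0%. Of the 52 genes that share under 10%, 21 were tested and 12 rose, where 14.3% of all tested genes rose. The ratio of their summed levels was 1.87.

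The 12 genes at 0 in all samples were HIST2H3PS2, HIST1H2AA, HIST1H2BA, HIST1H4A, HIST1H3D, HIST1H2AD, HIST1H4G, HIST1H4F, HIST1H3G, HIST1H2AK, HIST1H3I and HIST1H4L. With 0 reads, levels up to 3 reads, or 0.0704 to 0.674 FPKM depending on gene length and sample, could not have been detected, counting error only. HIST1H3D, HIST1H2AD, HIST1H2AK and HIST2H3PS2 are covered over at least 88% of their exon bases by exons of other genes, and whether reads there were assigned to another gene was not tested.

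The replication-independent histone genes were compared as a list of 22. Of these 11 were tested, 1 rose and 4 fell, with a median log2 fold change of -0.10, where 14.3% of all tested genes rose and 12.7% fell. H1F0, a linker histone of differentiated and resting cells, was at 158, 167 and 175 FPKM in DMSO and 98.6, 83.8 and 96.4 in PD, and it fell by 0.84 on the log2 scale (SE 0.10, adjusted p = 0.00157). That is the opposite direction to HIST1H1C, the replication-dependent H1. CENPA, the H3 of centromeres, was at 6.04, 6.36 and 7.06 against 3.15, 2.07 and 3.40 FPKM and fell by 0.97 (adjusted p = 0.00426). H2AFZ, an H2A variant of promoters, was at 105, 96.2 and 103 against 68.0, 61.1 and 79.9 FPKM and fell by 0.54 (adjusted p = 0.0136), though not without PD replicate 2 (adjusted p = 0.052).

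H2AFY2, a macroH2A gene, fell by 0.50 (adjusted p = 0.0476), and lost the call when any 1 sample other than DMSO replicate 1 was left out (adjusted p of 0.0652 to 0.133). H2AFJ rose by 0.39 (adjusted p = 0.0286), from 16.6 ± 0.908 to 22.1 ± 2.48 FPKM (SD, n = 3 each); it was named after its values were seen. The count of this list that rose was 0 to 1 and the count that fell 2 to 4 when samples were left out in turn. H3F3B, a gene for the replacement H3, was at 155, 132 and 143 FPKM in DMSO and 134, 125 and 159 in PD, also named after its values were seen, with overlapping groups.

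**Figure D5:**
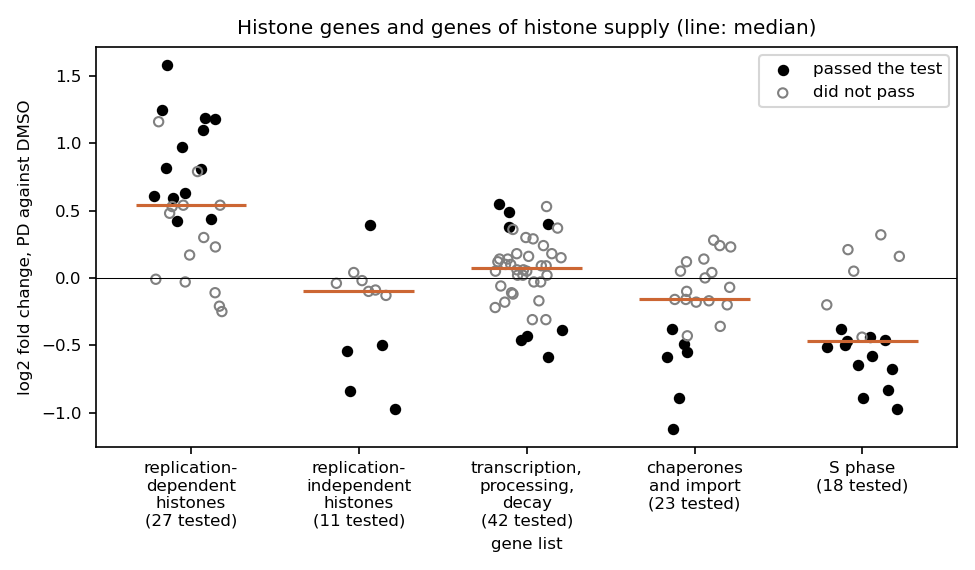
Log2 fold change of FPKM + 1, PD against DMSO, of the tested genes of 5 lists; filled points passed the test, open points did not, and lines are list medians. The replication-dependent histone genes have a median of 0.54, the replication-independent ones -0.10, the transcription, processing and decay factors 0.07, the chaperones -0.16 and the S phase genes -0.46.

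The factors that transcribe, process and degrade histone messages were compared as a list of 42: all were tested, 4 rose, 4 fell and the median log2 fold change was 0.07. Both counts are lower shares than the 14.3% of all tested genes that rose and the 12.7% that fell, so the members named below are values of single genes and not a result about the list. SLBP, which binds the stem-loop shown above, was at 36.8, 36.0 and 35.2 FPKM in DMSO and 35.8, 35.1 and 44.6 in PD (0.09, adjusted p = 0.592), and its sign turned when samples were scaled to the same total (-0.03) or by quantiles (-0.01). NPAT, the coactivator of histone genes at the histone locus body, was at 3.55, 2.83 and 2.76 against 2.79, 3.41 and 4.23 FPKM (0.14, adjusted p = 0.513). Both had overlapping groups.

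ZNF473 and LSM11 are parts of the machinery that cuts histone messages after the stem-loop. ZNF473 was at 3.29, 2.96 and 3.38 FPKM in DMSO and 5.67, 5.06 and 4.80 in PD and rose by 0.55 (adjusted p = 0.00714). LSM11, a subunit of the U7 snRNP, was at 4.30, 3.70 and 3.59 against 2.30, 2.59 and 2.69 FPKM and fell by 0.46 (adjusted p = 0.0167). HINFP, a transcription factor of H4 genes, rose by 0.49 (adjusted p = 0.027), and LSM5, of the ring that binds messages for decay, fell by 0.59 (adjusted p = 0.0415). The other factors that passed were named after their values were seen: WDR33 and POU2F1 rose, and LSM4 and CPSF4 fell. Without 1 sample the number that rose was 1 (without DMSO replicate 2) to 4 and the number that fell 0 (without PD replicate 2) to 3, and ZNF473 passed in each of these fits. LSM11 missed the threshold without PD replicate 1 (adjusted p = 0.0562) or PD replicate 2 (0.054), HINFP without DMSO replicate 1 or 2 (0.0526 and 0.0704) or PD replicate 1 or 2 (0.0864 and 0.0809), and LSM5 without DMSO replicate 1 or 3 (0.0874 and 0.0924) or PD replicate 1 or 2 (0.118 and 0.132).

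Genes that handle new histones and genes that drive S phase were compared as further lists. Of 23 tested histone chaperone, acetylation and import genes 0 rose and 6 fell, with a median of -0.16, where 14.3% of all tested genes rose and 12.7% fell. HJURP, the chaperone of CENPA, was at 5.52, 5.43 and 5.44 FPKM in DMSO and 1.77, 1.93 and 2.25 in PD and fell by 1.12 (adjusted p = 0.000511). ASF1B, which hands H3 and H4 to the assembly factors, was at 10.7, 11.4 and 13.3 against 6.44, 5.65 and 5.59 FPKM and fell by 0.89 (adjusted p = 0.00165). CHAF1B, of the assembly factor CAF-1, fell by 0.59 (adjusted p = 0.00946) and SSRP1, of FACT, by 0.55 (adjusted p = 0.00449).

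Of 18 tested S phase kinase, cyclin and E2F genes 0 rose and 12 fell, with a median of -0.46, beside the same shares of all genes. E2F1, a transcription factor of S phase entry, was at 7.78, 7.82 and 8.22 FPKM in DMSO and 3.93, 3.07 and 3.73 in PD and fell by 0.97 (adjusted p = 0.000963). CCNA2, the cyclin of S phase and G2, was at 30.6, 24.6 and 26.1 against 13.4, 13.3 and 15.7 FPKM and fell by 0.89 (adjusted p = 0.00208). CDT1, which licenses origins, fell by 0.83 (adjusted p = 0.00526) and TYMS, which makes thymidylate, by 0.68 (adjusted p = 0.0201). TYMS missed the threshold without DMSO replicate 3 (adjusted p = 0.0665) or PD replicate 2 (0.0721). Their part in the levels of the histone genes was not tested.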

How the data were processed

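The authors deposited 1 table of FPKM values with gene lengths, 1 column per sample, and columns were matched to samples by group prefix and the number ending each title. All 58735 identifiers are those of GENCODE 29 (GRCh38), with 0 mouse identifiers, although the submitters' processing notes name GRCm38 and mm10. For the aligner, the counter and its use of strand, the sources used here give nothing. FPKM times gene length gave whole reads for all values above 0 (tolerance 0.01). The FPKM denominators implied were 1.03 to 1.10 times the gene total in DMSO and 0.947 to 1.002 times in PD, and 1 read in a gene of 1 kb was worth 0.0566 to 0.0667 FPKM. Intervals and floors cover counting error only.

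Genes with at least 1 FPKM in at least 3 samples (13579) were fitted with limma 3.58.1 in R 4.3.3 on log2(FPKM + 1) with a mean-variance trend, a two-sided moderated test and no covariate, with Benjamini-Hochberg adjustment over the genes fitted. The 2-fold threshold is that of the labels. No count model was run as the main test because the unit is FPKM; voom on the recovered reads was an alternative. The members and lists were chosen with earlier results of these data known. Tested members were named, with up to 4 genes of each other list that passed with the largest change, or the highest where fewer than 2 passed, and SLBP, NPAT, LSM11 and ZNF473. The fit was tested on simulated data with a set spread between samples. It recovered 52.2% of 1.5-fold, 94% of 2-fold and 100% of 3-fold changes. Of its calls at adjusted p under 0.05, 7.3% were false. Alternatives covered pseudocount, filter, scaling, variance model, sample weights, replicate block and samples left out; GC correction and a filter of at least 10 reads were chosen after seeing the data. No sample was left out, and 27 gene names turned to dates were restored through their identifiers.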

Additional observations from a re-analysis of the deposited data

How the results depend on the processing

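More histone genes rose than fell in each setting tried: 9 of the 13 genes that rose passed in each of the 20 alternatives that tested them, and the median log2 fold change of the tested histone genes was 0.19 with no filter and 0.70 with voom. Leaving out each sample in turn gave 10 to 13 genes that rose, 0 that fell, 5 to 6 that rose at least 2-fold and a median of 0.46 to 0.70. Over all genes in these fits 1049 to 1861 of 13121 to 13261 rose, and 868 to 1649 fell. With a mean of at least 5 FPKM, 8 rose and 3 rose at least 2-fold, where fewer genes were tested. Over all genes in that fit 1254 of 7380 rose. With voom 11 rose at least 2-fold, against 6.34% of all genes. The 11 include HIST1H2BF, HIST1H4K and HIST1H4E, which passed the read filter through their PD samples. With array weights 1 fell, HIST2H2AC, where 3112 of all 13579 genes fell and 3189 rose. The cause was not tested. HIST1H2AC, HIST1H2BD, HIST1H2AG and HIST1H2BN missed the threshold in some settings, with no filter at adjusted p of 0.079, 0.0672, 0.101 and 0.0569. Depth limits the low genes: 18 of the 32 untested ones had under 10 reads.

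In the other lists, the number of replication-independent histone genes that rose was 0 with no filter, the same total per sample, quantile scaling or the replicate block. Left-out samples gave 0 to 1 that rose and 2 to 4 that fell. For processing factors, 2 rose with no filter, a mean of at least 5 FPKM or the same total, and 1 with the block; 1 fell with no filter, 2 with upper quartile scaling and 0 with the block. Left-out samples gave 1 to 4 and 0 to 3. For chaperones 1 rose with array weights, and left-out samples gave 0 that rose and 4 to 7 that fell. For S phase genes 1 rose with a mean of at least 5 FPKM, array weights, voom, protein-coding genes only, the fit without DMSO replicate 1 and PD replicate 3, GC correction or at least 10 reads. Left-out samples gave 0 to 1 that rose and 8 to 12 that fell, and 6 fell with the block. Over all genes 1451 of 32355 rose and 1075 fell with no filter. With quantile scaling 1832 of 13579 rose and 2088 fell, and with upper quartile scaling 2026 of 13578 rose and 1541 fell. With protein-coding genes only 1815 of 10662 rose and 1835 fell, and with GC correction 2535 of 13579 rose and 2928 fell. The causes were not tested.

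Replicate numbers did not pair the samples: deviations of same-numbered samples correlated at -0.388, 0.168 and -0.163. Those of differently numbered samples correlated at -0.344 (DMSO replicate 2, PD replicate 3) to 0.384 (DMSO replicate 1, PD replicate 3). Whether the samples pair in another order was not tested. With the replicate block 10 histone genes rose, 0 fell and 5 rose at least 2-fold. In that fit 1089 of all 13579 tested genes rose and 755 fell.

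Signs turned in genes near 0. HIST2H3D was at 0.17 with array weights, -0.32 to 0.23 with a sample left out and 0.29 without DMSO replicate 1 and PD replicate 3. HIST3H2BB was at 0.14 with array weights and -0.04 to 0.05 with a sample left out. HIST2H2BF was at 0.02 with array weights and -0.09 to 0.08 with a sample left out, and HIST4H4 at -0.02 with array weights. SLBP was at -0.03 with the same total, -0.01 with quantile scaling and -0.02 to 0.15 with a sample left out.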

Other observations

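Besides the protein-coding genes, 19 histone genes of the same names are annotated as pseudogenes. HIST2H2BC, a relative of the H2B genes, was at 2.64, 2.31 and 2.23 FPKM in DMSO and 4.38, 4.90 and 4.12 in PD. All PD samples were above all DMSO samples, and it rose by 0.69 ± 0.10 (SE, limma adjusted p = 0.00372). HIST2H2BD was at 0.901, 0.877 and 0.596 FPKM in DMSO and 1.62, 1.77 and 1.44 in PD. It reached the level for a test only in the PD samples, so these values are a description.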
